A study of Mus musculus with 16 samples.

Results

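The polar fragments of mouse blastocysts paused in natural diapause were compared with the polar fragments of blastocysts paused by an mTOR inhibitor. The polar fragment is the piece of the blastocyst that carries the inner cell mass. The comparison took the 3 polar diapaused and the 3 polar mTORi libraries by their tissue and treatment labels, which is 6 of the 16 small RNA libraries of the series, with every miRNA row kept. Of 1978 mature miRNA names, 410 had at least 1 count in these 6 libraries and 497 had one in the whole series. The calls, and the differences that the text turns on, are given with all 6 libraries and again without mTORi replicate 3, because the miRNA content of that library stood apart.

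The series profiled small RNA of blastocysts cut with a laser into a polar and a mural piece, and it concerns miRNAs in natural and induced pausing. Diapaused blastocysts (n = 3 libraries per piece) were paused in vivo and taken at EDG7.5. Blastocysts under mTOR inhibition, labelled mTORi (n = 3 per piece), carry no inhibitor name, dose or embryonic day in the labels. Normal blastocysts, labelled WT (n = 2 per piece), were taken at E4.5. The way of pausing, the age and the site of pausing therefore cannot be told apart between the diapaused and the mTORi group. The labels name no strain, do not say how many embryos a library holds, and do not say whether replicates came from separate embryos, so the p-values measure only the spread between these samples. A polar piece holds inner cell mass together with the trophectoderm that covers it, and in such bulk samples fewer cells of a type and less RNA per cell cannot be told apart.

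Diapause is a reversible arrest in which the blastocyst waits for a signal from the uterus before it implants. mTOR is a kinase that ties growth to nutrients, and inhibiting it can hold mouse blastocysts and pluripotent cells in a similar paused state. miRNAs are short RNAs that guide Argonaute proteins to messenger RNAs, mainly through the seed at their 5′ end, and names with the same seed are expected to share targets. Pluripotent mouse cells are known for the miR-290/miR-295 cluster, and differentiating cells for the let-7 family.

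The sequences on which the comparison turned are shown with the seed, bases 2 to 8, in capitals. They were taken from RefSeq on GRCm38, written 5′ to 3′. The first set is of miRNAs that were higher in diapaused libraries, with relatives that share a seed.
miR-28a-3p: cACUAGAUugugagcugcugga
miR-1981-5p: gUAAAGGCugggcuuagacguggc
miR-298-5p: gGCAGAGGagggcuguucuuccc
let-7d-5p: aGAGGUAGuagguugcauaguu
let-7b-5p: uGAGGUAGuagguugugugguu
miR-183-5p: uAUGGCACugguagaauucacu
miR-93-5p: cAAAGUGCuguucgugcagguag
miR-17-5p: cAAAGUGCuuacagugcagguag
miR-20a-5p: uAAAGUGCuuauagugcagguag
miR-106b-5p: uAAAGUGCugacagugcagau

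The second set is of miRNAs that were higher in mTORi libraries, with all libraries or without mTORi replicate 3. It shows the seed shared by miR-30e-5p and miR-30a-5p, that shared by the 2 miR-10 names, and the sequences of miR-5126 and miR-2137, which are made almost wholly of G and C.
miR-29a-3p: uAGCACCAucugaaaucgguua
miR-203-3p: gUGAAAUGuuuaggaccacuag
miR-205-5p: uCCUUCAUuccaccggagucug
miR-221-3p: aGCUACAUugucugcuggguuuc
miR-101a-3p: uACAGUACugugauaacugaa
miR-30e-5p: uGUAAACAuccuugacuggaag
miR-30a-5p: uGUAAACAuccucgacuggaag
miR-30e-3p: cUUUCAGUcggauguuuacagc
miR-10b-5p: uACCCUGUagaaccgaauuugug
miR-10a-5p: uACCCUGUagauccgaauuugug
miR-322-5p: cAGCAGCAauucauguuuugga
miR-294-3p: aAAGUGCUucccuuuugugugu
miR-295-3p: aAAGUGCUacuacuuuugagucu
miR-5126: gCGGGCGGggccgggggcgggg
miR-2137: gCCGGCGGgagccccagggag

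The diapaused libraries held 14500, 9510 and 9049 miRNA counts and the mTORi libraries 3061, 2184 and 3501. Replicate pairs differed by more than sampling noise, the ratio of chi-square to its degrees of freedom being 2.75 to 4.4 among diapaused libraries, 3.52 between mTORi replicates 1 and 2, and 16.1 and 12.6 between these and mTORi replicate 3. Among the 102 names that passed a filter on low counts, 7 with at least 10 counts in mTORi replicate 3 stood apart there. Each was at 3 or more times its highest level in the other 5 libraries. They were let-7b-5p, miR-203-3p, miR-205-5p, miR-21a-5p, miR-22-3p, miR-221-3p and miR-23a-3p, and together they held 1211 counts or 34.6% of that library. None of the 102 names stood apart so in any of the other 5 libraries. Names below the filter were left out of this search. Of those, miR-222-3p had 19 counts in mTORi replicate 3 and at most 7 in any other of the 6 libraries. miR-224-5p had 20 counts in diapaused replicate 3 and at most 6 in any other. The list of miR-203 and miR-205, known from stratified epithelium, held 25.8% of mTORi replicate 3 and 0.508% to 1.83% of the other 5 libraries, with miR-205-3p at 0 in all of them. Lists for erythroid, leukocyte, endothelial, muscle, liver, stromal and neural cells each held at most 0.366% of any of the 6 libraries. Many names of these lists, such as miR-486a-5p, miR-1a-3p, miR-133a-3p, miR-199a-3p, miR-9-5p and miR-124-3p, were at 0 in all 6 libraries. So were let-7a-5p, let-7c-5p, let-7f-5p, miR-16-5p, miR-24-3p and miR-26a-5p of other lists. Whether the counting left out such names was not tested, so these low shares cannot show that such cells were absent. The polar label was met by the Dlk1-Dio3 cluster, imprinted miRNAs that held 0.49% to 1.86% of the polar libraries and 0% to 0.0456% of the mural ones under the same treatments. The miR-322/miR-503 cluster held 0.686% to 1.97% of the polar and 2.63% to 5.27% of the mural libraries.

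**Figure D1:**
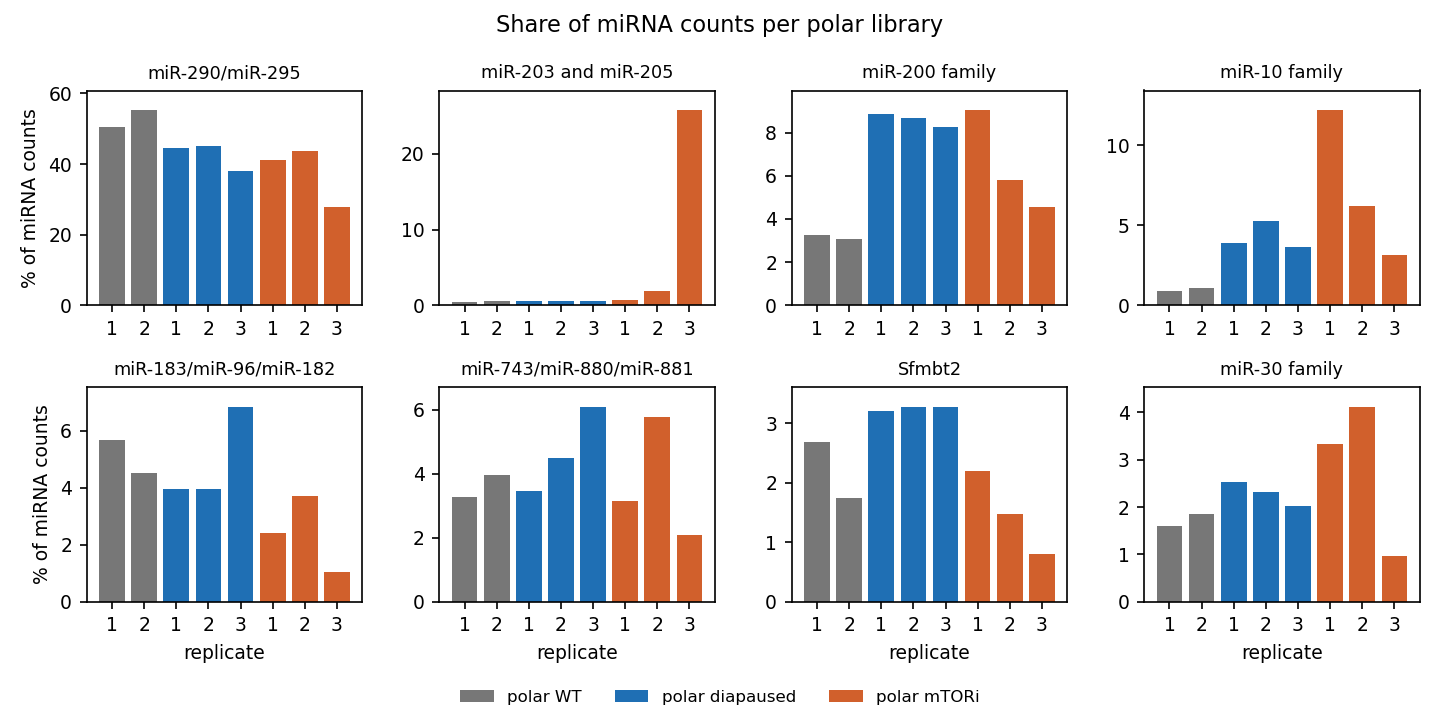
Share of the miRNA counts of each polar library, in percent, taken by 8 lists; bars are single libraries in the order of their replicate numbers, grey for WT, blue for diapaused and orange for mTORi. The panel of miR-203 and miR-205 shows 25.8% in mTORi replicate 3 and at most 1.83% in the other mTORi libraries, and the Sfmbt2 panel shows all 3 diapaused libraries above the mTORi ones.

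Levels are given in CPM, the tested counts of a library scaled to a common total after TMM factors, which correct for composition. Across all 102 names that passed the filter on low counts, 16 differed between diapaused and mTORi polar fragments at an edgeR adjusted p under 0.05, which is 15.7% of the tested names. Of these, 8 were higher in diapaused libraries (7.84%) and 8 were higher in mTORi libraries (7.84%), and 32 names (31.4%) had an unadjusted p under 0.05. Without mTORi replicate 3, 15 of 106 tested names were called (14.2%), 4 higher in diapaused (3.77%) and 11 higher in mTORi libraries (10.4%). Both fits called 10 names, 62.5% of the first set and 66.7% of the second. These were miR-28a-3p, miR-1981-5p, miR-5099 and let-7d-5p, higher in diapaused, and miR-29a-3p, miR-203-3p, miR-101a-3p, miR-30e-5p, miR-30e-3p and miR-5126, higher in mTORi libraries. Libraries of the 2 groups did not overlap for 13 of the 16 names and for 15 of the 15 called without mTORi replicate 3. Over all tested names, 21.6% had every diapaused library above every mTORi one and 10.8% the opposite, or 30.2% and 18.9% without mTORi replicate 3.

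The balance of the 2 directions moved with the filter and with the scaling of the libraries. With a minimum count of 20, 67 names were tested and 17 called, 2 higher and 15 lower in diapaused, and only 8 of them were among the 16. With no filter, 497 names were tested and 17 called, 5 higher and 12 lower, with 11 of them among the 16. With DESeq2 size factors the 16 calls were 6 higher and 10 lower in diapaused libraries, and with library size alone there were 12, 7 higher and 5 lower. The median log2 difference over all tested names was 0.12 with TMM factors, 0.06 with DESeq2 size factors and 0.36 with library size alone. Without mTORi replicate 3 these medians were -0.17, 0.05 and 0.24, and the calls were 5 higher and 8 lower with DESeq2 size factors and 6 and 6 with library size alone. All 16 names kept their sign under both other scalings and in DESeq2. Of the 13 called names tested in each of the 6 fits that left out a polar library, miR-29a-3p, miR-203-3p and miR-5099 were called in all of them, miR-466f-3p in 5, miR-101a-3p in 4, miR-298-5p in 3, miR-205-5p and miR-93-5p in 2, and let-7d-5p, miR-183-5p, miR-30e-5p, miR-30e-3p and miR-5126 in 1. The count of calls fell to 6, 5 and 4 without diapaused replicate 1, 2 and 3, and a fit of the 6 libraries alone called 3 names, miR-28a-3p, miR-29a-3p and miR-5126.

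**Figure D2:**
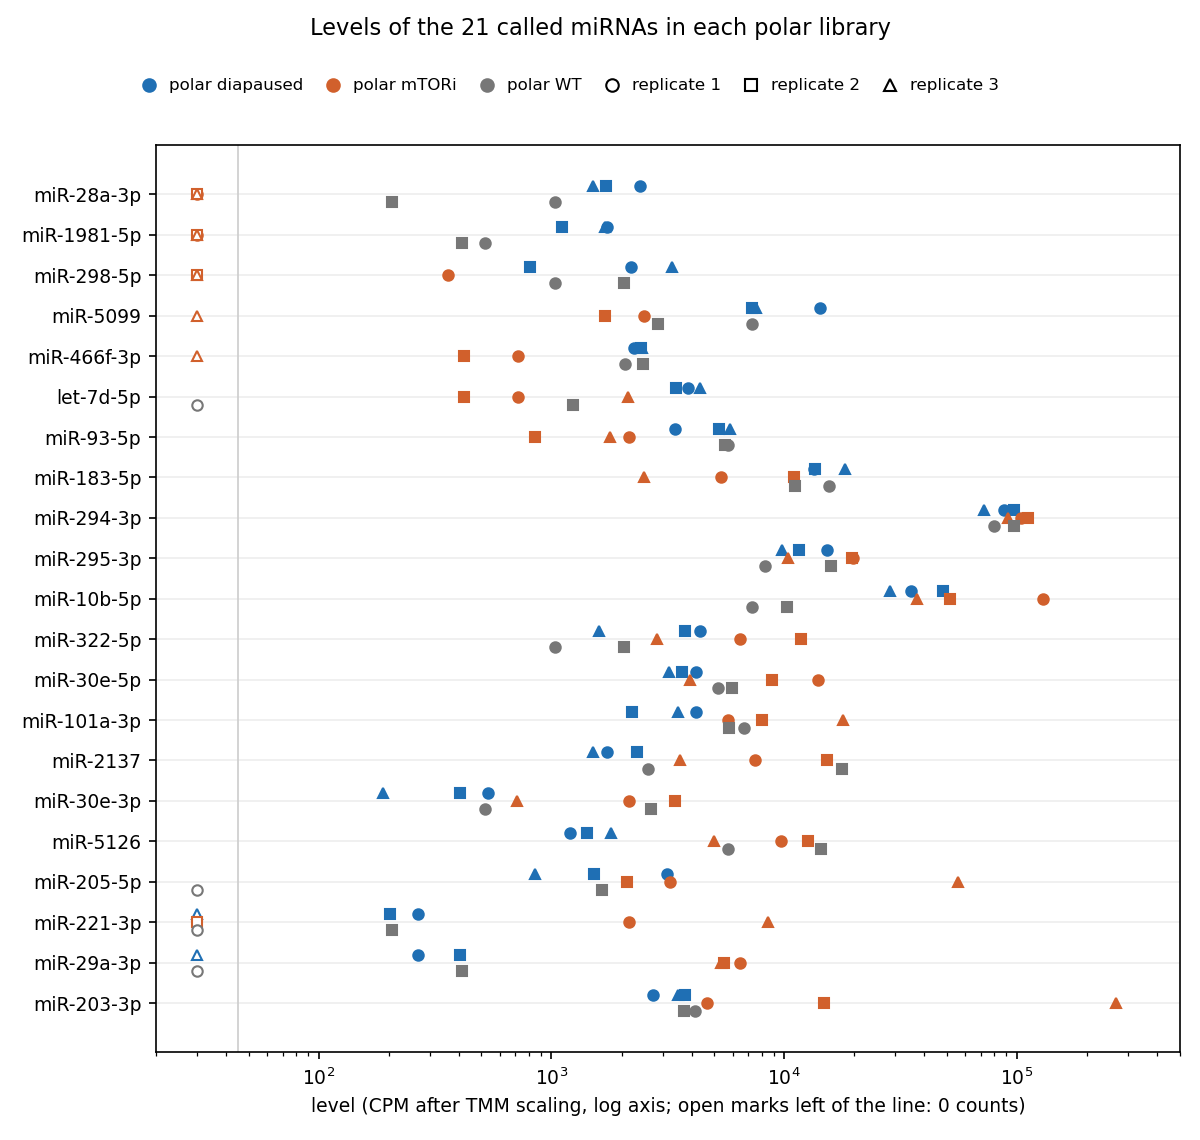
Level of each of the 21 miRNAs called with all libraries or without mTORi replicate 3, in CPM after TMM scaling on a log axis, with 1 mark per polar library; open marks to the left of the line are libraries with 0 counts. The marks of miR-28a-3p and miR-1981-5p in all 3 mTORi libraries lie left of the line, and the triangle of mTORi replicate 3 stands far right for miR-203-3p and miR-205-5p.

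In all, 30 names were read in every diapaused and in no mTORi polar library, of which 27 had too few counts for a test (4 to 26 summed over the diapaused libraries) and 2 of the 3 tested were called. No name was read in every mTORi and in no diapaused library, and the mTORi libraries were the shallower ones. The tested name that was not called was miR-340-5p, with 6, 5 and 13 counts against 0 (edgeR adjusted p = 0.142, and 0.257 without mTORi replicate 3). The called names were miR-28a-3p and miR-1981-5p. miR-28a-3p, from an intron of Lpp (chromosome 16, 24827855 to 24827940), was at 2398, 1721 and 1512 CPM in diapaused replicates 1, 2 and 3 and had 0 counts in all 3 mTORi libraries. All diapaused libraries were therefore above all mTORi libraries, on 69 against 0 counts. With counts summed over each group and the mTORi sum set at 3, miR-28a-3p was at least 5.17-fold higher in diapaused polar fragments (edgeR adjusted p = 0.00654), and at least 3.35-fold without mTORi replicate 3 (edgeR adjusted p = 0.023). The other arm of the hairpin, miR-28a-5p, differed by a log2 value of 0.61 and by 0.89 without that library. miR-1981-5p, from an intron of Marc2 (chromosome 1, 184822407 to 184822488), was at 1732, 1114 and 1701 CPM in diapaused libraries and again had 0 counts in every mTORi library. Its bound was at least 4.12-fold with all libraries (edgeR adjusted p = 0.0127) and at least 2.67-fold without mTORi replicate 3 (edgeR adjusted p = 0.0466). WT polar libraries had 2 and 1 counts of miR-28a-3p and 1 and 2 of miR-1981-5p. Both names were called in each of the 3 fits that left out 1 polar library and still tested them.

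miR-5099, from an intergenic hairpin (chromosome 12, 36816205 to 36816278), was at 14255, 7289.7 and 7558 CPM in diapaused and at 2504, 1692 and 0 CPM in mTORi libraries. The groups did not overlap, and the library at 0 was mTORi replicate 3. The log2 difference was 2.79 (SE 0.65, edgeR adjusted p = 0.0126), and 1.93 (SE 0.55, edgeR adjusted p = 0.0257) without that library. let-7d-5p, a let-7 member whose hairpin lies in an exon of the noncoding gene 6720427I07Rik (chromosome 13, 48536012 to 48536114), was at 3863, 3442 and 4346 CPM in diapaused and at 715, 423 and 2137 CPM in mTORi libraries. Every diapaused library was above every mTORi library, the nearest being mTORi replicate 3. Its log2 difference was 1.78 (SE 0.58, edgeR adjusted p = 0.0492) and grew to 2.45 (SE 0.71, edgeR adjusted p = 0.0257) without mTORi replicate 3. This call rested on few mTORi counts, 9 in all, and it held in 1 of the 6 fits that each left out a polar library. Without mTORi replicate 3 its mTORi counts were 3. The ratio of its levels from summed counts was then 6.69, with an exact 95% interval of 2.24 to 32.8.

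The next 4 names were called with all libraries and missed the threshold without mTORi replicate 3. miR-298-5p lies next to miR-296 in the imprinted Gnas locus (chromosome 2, 174267504 to 174267585). It was at 2198, 810 and 3307 CPM in diapaused libraries and had 1, 0 and 0 counts in mTORi libraries. The ratio of its levels from summed counts was 17.1, with an exact 95% interval of 2.97 to 683 (edgeR adjusted p = 0.026), and 11.1 (1.93 to 442; edgeR adjusted p = 0.103) without mTORi replicate 3. miR-466f-3p belongs to the cluster in the Sfmbt2 intron on chromosome 2, where 4 hairpins carry its name, so its reads cannot be placed on 1 of them. It was steady in diapaused libraries at 2265, 2430 and 2456 CPM and had 2, 1 and 0 counts in mTORi libraries. Its ratio was 6.29 (2.08 to 31.1; edgeR adjusted p = 0.0127), and 4.07 (1.35 to 20.1; edgeR adjusted p = 0.0833) without mTORi replicate 3.

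miR-93-5p sits with miR-106b and miR-25 inside Mcm7 (chromosome 5, 138165523 to 138165610), a cluster known for promoting entry into the cell cycle. Diapaused libraries had 3397, 5265 and 5858 CPM and mTORi libraries 2146, 846 and 1781 CPM, with no overlap. The log2 difference was 1.57 (SE 0.45, edgeR adjusted p = 0.027) and 1.37 (SE 0.54, edgeR adjusted p = 0.103) without mTORi replicate 3, and the call was lost. miR-183-5p, of a cluster best known from sensory organs (chromosome 6, 30169668 to 30169737), was at 13455, 13567 and 18234 CPM in diapaused and at 5365, 10996 and 2494 CPM in mTORi libraries. The lowest of the 6 was mTORi replicate 3. Its log2 difference was 1.28 (SE 0.42, edgeR adjusted p = 0.0492), and 0.64 (SE 0.37, edgeR adjusted p = 0.257) without that library. The remaining tested member of its cluster, miR-182-5p, differed by 0.72 (SE 0.28, edgeR adjusted p = 0.0901), and by 0.17 without mTORi replicate 3.

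Among the miRNAs called higher under mTOR inhibition in the fit without mTORi replicate 3, miR-29a-3p had the largest difference. miR-29 is known for repressing collagens and the de novo DNA methyltransferases, and this hairpin is intergenic (chromosome 6, 31062660 to 31062747). It was at 266, 405 and 0 CPM in diapaused replicates 1, 2 and 3 and at 6438, 5498 and 5344 CPM in mTORi replicates 1, 2 and 3. The groups were far apart, on 8 against 46 counts, and the WT polar libraries were at 0 and 412 CPM, next to a highest diapaused level of 405 CPM. The mean was 224 ± 205.8 CPM (SD, n = 3) in diapaused and 5760 ± 592 CPM (SD, n = 3) in mTORi libraries, a level 23.9-fold higher under mTOR inhibition (log2 -4.58, SE 0.82, edgeR adjusted p = 0.00333). Without mTORi replicate 3 it was 29.7-fold higher (log2 difference -4.89, SE 0.86, edgeR adjusted p = 0.00207). It was called in all 6 fits that each left out a polar library, with adjusted p-values up to 0.0284 by the same edgeR test. No other name of the miR-29 family was tested.

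Of the tested names that stood apart in mTORi replicate 3, 3 were called, and they depended on it to different degrees. miR-203-3p, known for driving differentiation of the epidermis (chromosome 12, 112130880 to 112130955), was at 2731, 3746 and 3496 CPM in diapaused and at 4649.7, 14803 and 266465 CPM in mTORi libraries. All mTORi libraries were above all diapaused ones, by a small margin in replicate 1 and by far in replicate 3. Its log2 difference was -4.84 (SE 0.96, edgeR adjusted p = 0.00517) with all libraries and -1.78 (SE 0.45, edgeR adjusted p = 0.0146) without mTORi replicate 3, which is 28.7-fold against 3.44-fold. Without that library the call was lost when libraries were scaled by their size alone (edgeR adjusted p = 0.059).

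miR-205-5p, an epithelial miRNA known for repressing the Zeb factors (chromosome 1, 193507463 to 193507530), was at 3131, 1519 and 850 CPM in diapaused and at 3219, 2115 and 55573 CPM in mTORi libraries. The groups overlapped with all libraries too, and leaving out mTORi replicate 3 took the log2 difference from -3.44 (SE 0.97, edgeR adjusted p = 0.026) to -0.78 (SE 0.79, edgeR adjusted p = 0.563). miR-221-3p, known for repressing the cell cycle inhibitor p27 (chromosome X, 19146294 to 19146388), had 4, 2 and 0 counts in diapaused and 6, 0 and 24 counts in mTORi libraries. These groups overlapped as well, and 24 of the 30 mTORi counts were in replicate 3. Its log2 difference of -4.32 (SE 1.08, edgeR adjusted p = 0.0127) became -2.92 (SE 1.34, edgeR adjusted p = 0.164) without that library. Whether the miR-203 and miR-205 content of this library bears on its other values was not tested. With the counts of miR-203-3p and miR-205-5p left out of the library sizes, 100 names were tested and 17 called, and these held all 14 of the 16 that were still tested.

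miR-101a-3p, known for repressing the Polycomb enzyme Ezh2, comes from an exon of the noncoding gene E130102H24Rik (chromosome 4, 101346945 to 101347027). It was at 4196, 2227 and 3496 CPM in diapaused and at 5723, 8036 and 17812 CPM in mTORi libraries, which did not overlap. The log2 difference was -1.66 (SE 0.42, edgeR adjusted p = 0.0127), and -1.30 (SE 0.38, edgeR adjusted p = 0.0273) without mTORi replicate 3. In that second comparison it was not called with DESeq2 size factors (adjusted p = 0.0584 in edgeR) or in DESeq2 (adjusted p = 0.0697). Its near relative miR-101b-3p differed by 0.31 (SE 0.32, edgeR adjusted p = 0.56), or by -0.13 (SE 0.34) without mTORi replicate 3.

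Both arms of the miR-30e hairpin, in an intron of Nfyc (chromosome 4, 120772606 to 120772697), were called lower in diapaused libraries. miR-30e-5p was at 4196, 3645 and 3212 CPM in diapaused and at 13949, 8882 and 3919 CPM in mTORi libraries, of which replicate 3 lay inside the diapaused range. The log2 difference was -1.27 (SE 0.42, edgeR adjusted p = 0.0492) and -1.90 (SE 0.37, edgeR adjusted p = 0.00224) without mTORi replicate 3, from 2.41-fold to 3.73-fold. miR-30e-3p had 8, 4 and 2 counts in diapaused and 6, 8 and 2 counts in mTORi libraries, or 533, 405 and 189 CPM against 2146, 3384 and 712 CPM. The groups did not overlap in CPM, and the log2 difference was -2.35 (SE 0.71, edgeR adjusted p = 0.0344), or -3.02 (SE 0.71, edgeR adjusted p = 0.00903) without mTORi replicate 3. Among the 6 fits with a polar library left out, only that one called either arm. Without mTORi replicate 1, miR-30e-5p differed by -0.76 (edgeR adjusted p = 0.241), and without mTORi replicate 2, miR-30e-3p differed by -1.77 (edgeR adjusted p = 0.132). With library size alone neither arm was called with all libraries. Without mTORi replicate 3 that scaling called both, miR-30e-5p (edgeR adjusted p = 0.0115) and miR-30e-3p (edgeR adjusted p = 0.0197). Of the 5 tested names of the miR-30 family, 2 were called, both lower in diapaused and both from this hairpin, where 7.84% of all tested names were called lower, and the family median was -0.84 against 0.12 over all tested names. Without mTORi replicate 3 the median was -1.51 against -0.17, with the same 2 of 5 called and 10.4% of all names called lower. miR-30a-5p, which has the same seed as miR-30e-5p, differed by -0.71 (SE 0.69, edgeR adjusted p = 0.525), and by -1.51 (SE 0.57, edgeR adjusted p = 0.091) without that library. The most abundant member, miR-30d-5p, differed by 0.23 (SE 0.30), and by -0.33 (SE 0.26) without mTORi replicate 3, and was called in neither.

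miR-5126 and miR-2137 were the names with the highest share of G and C among the 89 tested names with a sequence, at 100% and 85.7%, where the median was 45.5%. miR-5126 (chromosome 1, 84695839 to 84695915, intergenic) was at 1199, 1417 and 1795 CPM in diapaused, at 9657, 12688 and 4987 CPM in mTORi and at 5709 and 14413 CPM in WT polar libraries. The diapaused libraries were thus the low group, below each library of the other 2 groups. Against mTORi the log2 difference was -2.62 (SE 0.87, edgeR adjusted p = 0.0492), and -3.18 (SE 0.90, edgeR adjusted p = 0.0257) without mTORi replicate 3. The other 5 fits with a polar library left out did not call it (edgeR adjusted p up to 0.149), nor did library size alone or robust dispersion with all libraries. In the fit less mTORi replicate 3 it was lost in DESeq2 (adjusted p = 0.0697) and with library size alone (edgeR adjusted p = 0.059). miR-2137 (chromosome X, 72992079 to 72992144, intron of Zfp185) was at 1732, 2329 and 1512 CPM in diapaused, at 7511, 15226 and 3562 CPM in mTORi and at 2595 and 17707 CPM in WT polar libraries. It showed the same order of groups. Its log2 difference was -2.22 (SE 0.78, edgeR adjusted p = 0.0611) with all libraries and was called only without mTORi replicate 3, at -2.85 (SE 0.78, edgeR adjusted p = 0.023). The median share of G and C was 51.1% over the 6 names called higher in diapaused that had a sequence and 43.2% over the 8 called lower. Whether base composition bears on the values of either miRNA was not tested.

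A further 4 names were called only without mTORi replicate 3, all of them higher in mTORi libraries. miR-10b-5p, from the HoxD locus (chromosome 2, 74726070 to 74726137, intron of Hoxd3 and of Hoxd4), was at 35103, 47991 and 28532 CPM in diapaused and at 129118, 51598 and 37049 CPM in mTORi libraries. mTORi replicate 1 was the high library and replicate 3 lay within the diapaused range. The log2 difference was -0.97 (SE 0.33, edgeR adjusted p = 0.0574) and became -1.56 (SE 0.29, edgeR adjusted p = 0.00224) without mTORi replicate 3. That call also held with both other scalings and in DESeq2, with adjusted p-values of 0.008, 0.0108 and 0.000412 in that order. It rested on mTORi replicate 1: with that library left out and replicate 3 kept, the difference was -0.23 (edgeR adjusted p = 0.528), and 2 of the 6 fits that each left out a polar library called it. miR-322-5p, of an X-linked cluster known for restraining the cell cycle (chromosome X, 53054255 to 53054349), was at 4329.6, 3746 and 1606 CPM in diapaused and at 6438, 11842 and 2850 CPM in mTORi libraries. It went from -1.10 (SE 0.45, edgeR adjusted p = 0.101) to -1.72 (SE 0.39, edgeR adjusted p = 0.00846) without mTORi replicate 3. Without mTORi replicate 2 in its place it was -0.45 (edgeR adjusted p = 0.602), and only the fit without replicate 3 called it among the 6 with a library left out. This miRNA is also the one that marks mural fragments, at 20787 ± 4286 CPM (SD, n = 3) in mural mTORi libraries, and the part of attached trophectoderm in its polar level was not tested.

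miR-294-3p and miR-295-3p, which share the seed known for pushing embryonic stem cells through the cell cycle, were the other 2. miR-294-3p (chromosome 7, 3220641 to 3220724) was at 87525, 96690.3 and 72370.2 CPM in diapaused and at 103723, 111232 and 91553 CPM in mTORi libraries. The difference was small, a log2 value of -0.26 (SE 0.15, edgeR adjusted p = 0.275), and -0.59 (SE 0.18, edgeR adjusted p = 0.0354) without mTORi replicate 3. miR-295-3p (chromosome 7, 3220773 to 3220841) was at 15320.2, 11542 and 9826 CPM in diapaused and at 19672, 19455 and 10331 CPM in mTORi libraries, and differed by -0.43 (SE 0.31, edgeR adjusted p = 0.396) with all of them. Its difference without mTORi replicate 3 was -0.93 (SE 0.29, edgeR adjusted p = 0.0354). Neither call held without that library under DESeq2 size factors (edgeR adjusted p = 0.1 and 0.0887), library size alone (edgeR adjusted p = 0.334 and 0.169) or in DESeq2 (adjusted p = 0.145 and 0.0697). The median over all tested names was -0.17 in the fit that gave -0.59 and -0.93. With DESeq2 size factors and without mTORi replicate 3 that median was 0.05, and the differences were -0.39 for miR-294-3p and -0.73 for miR-295-3p. How far the scaling bears on these values was not tested.

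**Figure D3:**
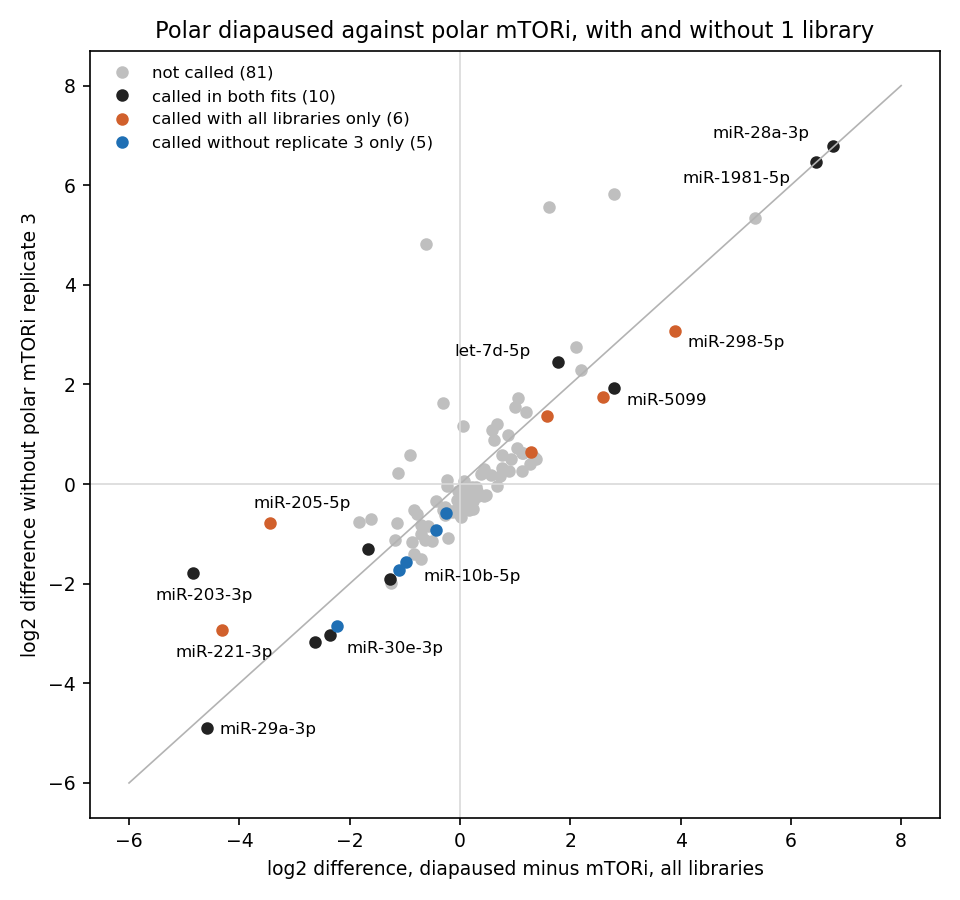
Log2 difference of each of the 102 tested names, diapaused minus mTORi, with all libraries (horizontal axis) and without mTORi replicate 3 (vertical axis); the diagonal marks equal values. miR-28a-3p, miR-1981-5p and miR-29a-3p lie near the diagonal, while miR-203-3p goes from -4.84 to -1.78 and miR-205-5p from -3.44 to -0.78; points of names with 0 counts in 1 group show fitted values, not bounds.

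The most abundant cluster gave no call with all libraries. The miR-290/miR-295 cluster held 44.6%, 45.2% and 38% of the counts of the diapaused libraries and 41.1%, 43.7% and 27.9% of those of the mTORi libraries. The low value was that of mTORi replicate 3, where the share was 37.6% of the counts other than miR-203 and miR-205. Of its 13 tested names none passed the threshold with all libraries, and their median log2 difference was 0.04 against 0.12 over all tested names. Without mTORi replicate 3, the 2 names given above were lower in diapaused libraries and the median was -0.17 on a background of -0.17. miR-292a-5p, the most abundant miRNA in all but 1 of the 6 libraries, was at 181778, 188217 and 127167 CPM in diapaused and at 194929, 147605 and 116846 CPM in mTORi libraries, and differed by 0.11 (SE 0.17, edgeR adjusted p = 0.692), or by -0.31 (SE 0.18) without mTORi replicate 3. The exception was mTORi replicate 3, in which miR-203-3p took 21.4% of the counts.

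Other abundant names were not called with all libraries. miR-293-3p differed by 0.04 (SE 0.18), miR-292a-3p by -0.31 (SE 0.20), and miR-148a-3p, known for repressing the maintenance DNA methyltransferase, by -0.27 (SE 0.22). These values became -0.17, -0.51 and -0.62 without mTORi replicate 3, again with no call. miR-200c-3p, an epithelial miRNA, was at 53421, 52344 and 46200 CPM in diapaused and at 57942, 35950 and 33486 CPM in mTORi libraries and differed by 0.25 (SE 0.21, edgeR adjusted p = 0.447), or by -0.16 (SE 0.21) without mTORi replicate 3. miR-26b-5p differed by -0.77 (SE 0.33, edgeR adjusted p = 0.12), with its highest level, 37405 CPM, in mTORi replicate 3. The 5 tested names of the miR-200 family had no call and a median of 0.13, or -0.16 without mTORi replicate 3, and held 8.26% to 8.86% of diapaused and 4.57% to 9.05% of mTORi libraries. miR-302/miR-367 names, which mark the primed epiblast, had 5, 2 and 8 counts in diapaused and 0, 2 and 0 in mTORi libraries, too few for a test.

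The lists below are read against the 15.7% of all tested names that were called, or 14.2% without mTORi replicate 3, and a count near that share is no result about a list. Of 6 tested names in the list of miR-17/miR-92 and related clusters, miR-93-5p was called and the median was 0.98, or 0.41 over 7 names with no call without mTORi replicate 3. miR-25-3p, from the same hairpin cluster as miR-93-5p, differed by -0.70 (SE 0.40, edgeR adjusted p = 0.267), and miR-92a-3p by -0.27 (SE 0.35), so members of 1 cluster lay on both sides of zero. In the let-7 family 1 of 5 tested names was called, in both comparisons. let-7a-5p, let-7c-5p and let-7f-5p had 0 counts in all 6 libraries, so the list and the let-7 seed sum below cover only part of the family. let-7b-5p was at 4729, 3239.9 and 5196 CPM in diapaused and at 6438, 5921 and 34555 CPM in mTORi libraries, the reverse order to let-7d-5p, and differed by -1.83 (SE 0.63, edgeR adjusted p = 0.0574) and -0.76 (SE 0.54, edgeR adjusted p = 0.38) without mTORi replicate 3. let-7g-5p differed by 0.22 (SE 0.37) and let-7e-5p by 1.19 (SE 0.53, edgeR adjusted p = 0.13), or by -0.06 and 1.45 without mTORi replicate 3.

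Among imprinted and clustered loci, the Sfmbt2 cluster, a large rodent array of repeated hairpins, held 3.2%, 3.28% and 3.28% of the diapaused libraries and 2.19%, 1.47% and 0.8% of the mTORi libraries, so every diapaused library was above every mTORi one. Of its 3 tested names 1 was called, miR-466f-3p, and the median was 0.77. The fit without mTORi replicate 3 tested 4 and called 0 of them in edgeR, with a median of 0.82. That set holds a further name, so the 2 medians are not over the same names. miR-669c-5p, the most abundant, was at 12256, 11542 and 10582 CPM in diapaused and at 9657, 5498 and 4987 CPM in mTORi libraries. It differed by 0.77 (SE 0.37, edgeR adjusted p = 0.175), and by 0.32 (SE 0.40, edgeR adjusted p = 0.624) without mTORi replicate 3. miR-466d-3p differed by 0.44 (SE 0.43, edgeR adjusted p = 0.525), and by -0.24 (SE 0.39, edgeR adjusted p = 0.673) without that library. In the Gnas list 1 of 3 names was called, miR-298-5p, and 0 of 3 without mTORi replicate 3. Its neighbours miR-296-3p and miR-296-5p differed by 1.12 (SE 0.94) and -0.24 (SE 0.85), or by 0.26 and 0.08 without mTORi replicate 3. The 7 tested names of the X-linked miR-743/miR-880/miR-881 cluster had no call and a median of 0.07, or -0.23 without mTORi replicate 3. Among all 18 tested names on chromosome X, 1 was called, miR-221-3p, against 15 of the 83 autosomal names, and the medians were 0.10 and 0.13. The calls were 2 of 18 and 13 of 87 without mTORi replicate 3.

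Summing the counts of names with 1 seed gave 66 tested seed families, from names that held 88.1% of the counts. With all libraries 10 were called (15.2%), 5 higher (7.58%) and 5 lower (7.58%) in diapaused, and without mTORi replicate 3 there were 10 of 67 (14.9%), 3 higher (4.48%) and 7 lower (10.4%). Most held a single name and repeated its result. The family of the seed AAAGUGC, which joins miR-93-5p to miR-17-5p, miR-20a-5p, miR-20b-5p, miR-106a-5p and miR-106b-5p, had 120, 120 and 111 counts in diapaused and 17, 7 and 8 counts in mTORi libraries. It was higher in diapaused by a log2 value of 1.40 (SE 0.36, edgeR adjusted p = 0.017), and by 1.24 (SE 0.39, edgeR adjusted p = 0.0457) without mTORi replicate 3, where miR-93-5p on its own was not called. In the miR-30 family, miR-30b-5p and the most abundant member, miR-30d-5p, had no sequence here and were left out of every seed sum. The GUAAACA sum therefore covers only part of that family. miR-30d-5p on its own differed by 0.23 (SE 0.30), and by -0.33 (SE 0.26) without mTORi replicate 3, with no call. The GUAAACA family of miR-30a-5p, miR-30e-5p and miR-30c-5p had a difference of -0.98 (SE 0.45, edgeR adjusted p = 0.129) and was called without that library at -1.39 (SE 0.37, edgeR adjusted p = 0.0245). The ACCCUGU family of miR-10a-5p and miR-10b-5p did likewise, at -0.89 (SE 0.32, edgeR adjusted p = 0.064) and -1.18 (SE 0.28, edgeR adjusted p = 0.0174). The let-7 seed GAGGUAG, with let-7b-5p and let-7d-5p in opposite order, had differences of -0.33 (SE 0.41, edgeR adjusted p = 0.597) and 0.56 (SE 0.29, edgeR adjusted p = 0.187). The seed AAGUGCU of miR-291a-3p, miR-294-3p, miR-295-3p, miR-302b-3p and miR-302d-3p differed by -0.21 (SE 0.16, edgeR adjusted p = 0.419), and by -0.27 (SE 0.19, edgeR adjusted p = 0.359) without mTORi replicate 3. The count of seed families called was 6, 4 and 2 without diapaused replicate 1, 2 and 3.

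The number of different miRNAs read was compared at equal depth, since diapaused libraries were deeper. At 2184 counts, the total of the shallowest of the 6 libraries, 179, 172 and 185 names would be expected in diapaused and 138, 147 and 148 in mTORi libraries. All 3 diapaused libraries were above all 3 mTORi ones, of which replicate 3 was the highest. The means were 179 ± 6.51 (SD, n = 3) and 144.3 ± 5.51 (SD, n = 3), a difference of 34.3 names, with a two-sided exact permutation p of 0.10, the smallest that 3 against 3 libraries allow. At 1000 counts the order was the same, with 132 names in the lowest diapaused and 116 in the highest mTORi library. Polar WT replicate 2 would give 165 names at 2184 counts, between the groups, and the shallower WT library cannot be drawn to that depth. The number of PCR cycles ran from 12 to 20 by the protocol and is not labelled by library, so its part in these numbers was not tested.

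**Figure D4:**
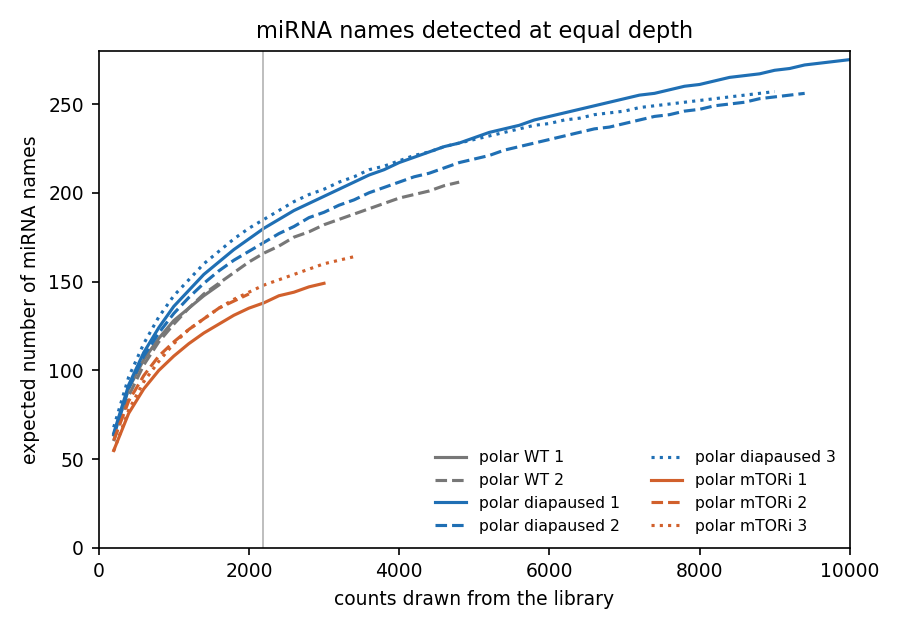
Expected number of miRNA names (vertical axis) when a given number of counts is drawn from each polar library (horizontal axis, up to 10000 counts); blue is diapaused, orange mTORi and grey WT, with line styles for replicates and a vertical line at 2184 counts. The 3 diapaused curves run above the 3 mTORi curves, 172 to 185 against 138 to 148 names at the line.

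The same contrast in mural fragments was used to see whether the polar differences recurred there. The mural libraries of both treatments were separate from the polar ones, but the labels do not say whether they came from the same embryos. In mural fragments 1 of 102 names was called (0.98%), miR-351-5p, and 26 (25.5%) had an unadjusted p under 0.05. miR-351-5p was at 11654 ± 966 CPM (SD, n = 3) in diapaused and 1782 ± 474 CPM (SD, n = 3) in mTORi mural libraries, which differed by a log2 value of 2.71 (SE 0.51, edgeR adjusted p = 0.00613). In polar fragments it differed by 0.14 (SE 0.53). All 16 names called in polar fragments had the same sign in mural fragments, and none of them passed the threshold there. How many of all 102 tested names had the same sign in both fragments was not counted, so the 16 have no background to be read against. miR-93-5p came close in mural fragments, at 1.47 (SE 0.47, edgeR adjusted p = 0.0687), as did miR-30e-5p at -1.18 (SE 0.40), miR-1981-5p at 3.31 (SE 1.04) and miR-5126 at -3.70 (SE 1.05), each with the same adjusted p in edgeR. Names not called in polar fragments with all libraries shared that adjusted p. Among them were miR-10b-5p, miR-290a-5p, miR-294-3p, miR-320-3p, miR-328-3p, miR-501-3p and miR-672-5p. miR-29a-3p differed by -1.80 (SE 0.72, edgeR adjusted p = 0.133) and miR-203-3p by -0.68 (SE 0.87, edgeR adjusted p = 0.623).

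Whether a polar difference was larger or smaller than the mural one was tested by the interaction of fragment and treatment. edgeR called 0 of 102 names (0%), with 8 (7.84%) at an unadjusted p under 0.05, and DESeq2 called 1, miR-351-5p. Without mTORi replicate 3, 0 of 106 names were called (0%), with 15 (14.2%) at an unadjusted p under 0.05. The difference of differences was -4.16 for miR-203-3p (edgeR adjusted p = 0.147) and -0.86 without mTORi replicate 3. For miR-29a-3p it was -2.78 (edgeR adjusted p = 0.354) and for miR-28a-3p, read at 702 ± 330 CPM (SD, n = 3) in mural mTORi libraries, it was a fitted 5.50 (edgeR adjusted p = 0.214). For miR-294-3p it was -0.69 (edgeR adjusted p = 0.147), and -0.79 (edgeR adjusted p = 0.162) without mTORi replicate 3. For miR-322-5p it was -1.51 (edgeR adjusted p = 0.354), and -1.90 (edgeR adjusted p = 0.0824) without that library. No name can thus be said to differ between pauses in polar fragments alone.

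**Figure D5:**
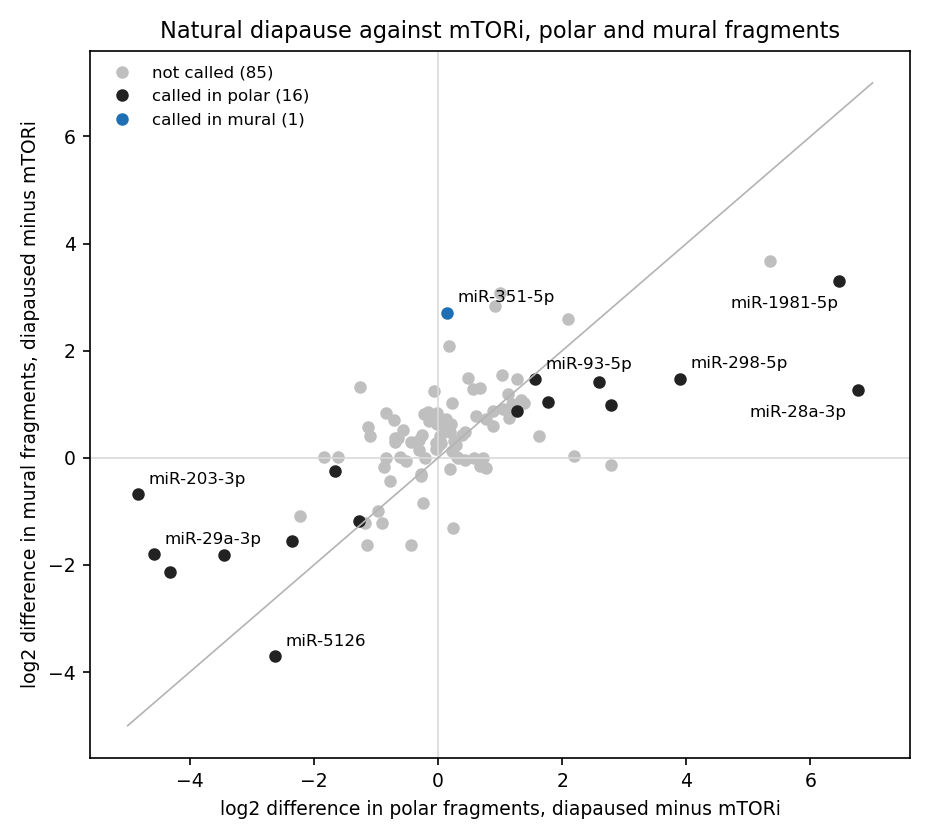
Log2 difference of each of the 102 tested names, diapaused minus mTORi, in polar (horizontal axis) and mural fragments (vertical axis); the diagonal marks equal values. All 16 names called in polar fragments lie on the same side of zero on both axes, a count not made for all 102 names. miR-351-5p, the name called in mural fragments, lies at 0.14 on the polar axis. Values of names with 0 counts in a group are fitted values, not bounds.

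Polar WT libraries, 2 in number, were set beside both pauses to show where each group lay. They serve as controls for both, so the 2 comparisons share samples and are given side by side. miR-29a-3p differed from WT by -0.32 (SE 1.44, edgeR adjusted p = 0.957) in diapaused and by 4.26 (SE 1.15, edgeR adjusted p = 0.0187) in mTORi libraries. miR-93-5p differed by -0.22 (SE 0.44, edgeR adjusted p = 0.833) and -1.79 (SE 0.51, edgeR adjusted p = 0.0187), and miR-466f-3p by 0.04 (SE 0.52, edgeR adjusted p = 0.992) and -2.56 (SE 0.72, edgeR adjusted p = 0.0187). For these 3 names the estimate for diapaused libraries lay closer to zero than that for mTORi libraries. let-7d-5p differed by 2.24 (SE 0.68, edgeR adjusted p = 0.0511) in diapaused and 0.45 (SE 0.81, edgeR adjusted p = 0.751) in mTORi libraries, with the mTORi level nearer to WT. miR-5126 followed the same pattern, at -2.81 (SE 0.91, edgeR adjusted p = 0.0662) and -0.20 (SE 0.90, edgeR adjusted p = 0.907). miR-10b-5p was higher than in WT under both, by 2.05 (SE 0.42, edgeR adjusted p = 0.00653) and 3.02 (SE 0.44, edgeR adjusted p = 0.000257). In all, 8 names were called in diapaused against WT (7.84%) and 23 in mTORi against WT (22.5%), or 13 of 106 (12.3%) without mTORi replicate 3. Without that library, miR-93-5p and miR-466f-3p were not called against WT in mTORi libraries (edgeR adjusted p = 0.0701 and 0.101), while miR-29a-3p was, at 4.54 (edgeR adjusted p = 0.016), and miR-10b-5p at 3.57 (edgeR adjusted p = 2.16e-06). The mTORi estimates without it were -0.26 for let-7d-5p and 0.32 for miR-5126, so both changed sign while staying within their SE of zero.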

How the data were processed

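Small RNA libraries were made with ligated adapters carrying unique molecular identifiers, 12 to 20 PCR cycles, no size selection and single reads of 75 bases, per the labels' protocols. The deposited values are raw counts per mature miRNA name, 1 table per library, and the sources used here do not say whether identifiers were collapsed or which aligner and counting tool were used. The submitters' processing notes name GRCm38. Intervals and floors cover counting error only.

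Names were filtered with filterByExpr (minimum count 10, minimum total 15) and TMM-scaled, and a quasi-likelihood model with 1 mean per tissue and treatment was fitted to all 16 libraries in edgeR 4.0.16 (R 4.3.3; common dispersion 0.1417, prior degrees of freedom 7.13, 10 residual degrees of freedom). All 6 groups shared the spread estimate. Contrasts were diapaused minus mTORi in polar fragments, in mural fragments and their difference, and each polar group minus WT. Calls were made at 0.05 on two-sided p-values adjusted by Benjamini and Hochberg over all tested names of a contrast. The fit without mTORi replicate 3 repeated the filter, so it tested 106 names in place of 102. CPM are tested counts on the TMM-scaled library. Tested names held 92.9% to 96.2% of the counts of the 6 libraries. A group at 0 was set to 3 counts over the group, 377 CPM for mTORi and 84.6 CPM for diapaused. Names with 1 to 3 counts in a group carry an exact 95% interval of the count ratio. The script was tested on simulated counts.

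The members, lists, contrasts and alternatives were chosen with earlier results of these data known. Lists (31) were described by counts and medians. Named miRNAs were those called in polar fragments with all libraries (up to 12 each way) or without mTORi replicate 3 (up to 8 each way), the 12 most abundant by mean CPM, and at most 4 of each list with at least 2 tested names. Others named here (such as the 7 tested names that stood apart in mTORi replicate 3, miR-28a-5p and those in seed families) were chosen after their values were seen. Sequences came from RefSeq on GRCm38 for 1679 names, and hairpin positions from the GRCm38 gene annotation. Alternatives were DESeq2 1.42.0, other scalings, filters, robust dispersion, only the groups compared, the replicate number as a block, and leaving out each library.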

Additional observations from a re-analysis of the deposited data

How the results depend on the processing

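With all libraries, 16 names were called in polar fragments. The count was 3 when only the 6 libraries were fitted, where 81 names passed the filter, and 4 to 18 when 1 polar library was left out. It was between 12 and 21 under other scalings, filters, robust dispersion and DESeq2, but a minimum count of 20 shared only 8 of its 17 calls with the 16, and no filter 11 of 17. In alternatives chosen after seeing the data, a further change on top of leaving out mTORi replicate 3 gave 9 (DESeq2), 12 (library size), 13 (DESeq2 size factors) and 14 calls (only the groups compared). The mural count of 1 became 5 (DESeq2 size factors), 4 (library size), 6 (no filter), 5 (minimum count 20), 5 (DESeq2), 2 (robust dispersion), 17 (only the groups compared) and 0 to 3 with 1 library left out. The difference between fragments, 0 calls, became 1 without a filter, 1 in DESeq2, 1 with only the groups compared and 0 to 1 with 1 library left out. Seed families, 10 calls, became 5 (minimum count 20), 16 (DESeq2), 5 (only the groups compared) and 2 to 13 with 1 library left out. What caused these changes was not tested. In the fit of the 6 libraries alone, 12 of the 16 called names were still tested. For the 16 called names, no alternative changed the sign, and 94 values lost the threshold while 187 kept it. For 48 other named miRNAs, 43 values passed the threshold and 842 did not.

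Polar diapaused and polar mTORi libraries with the same replicate number deviated together only weakly (correlations over 102 names of 0.126, 0.0544 and 0.0958 for replicates 1, 2 and 3). Libraries with different numbers had correlations from -0.184 to 0.0815, and for each mTORi library the same number gave the highest value. Values this small cannot show whether the numbers pair these 2 groups. Whether the numbers pair polar with mural libraries of the same treatment was not tested. The main fit and its interaction test took the fragments as separate samples. With the replicate number as a block, 15 names were called in polar fragments, 14 of them shared, 1 in mural fragments, 0 in the difference and 9 seed families. Shallow mTORi libraries, where 1 count was worth 356 to 423 CPM, limit every low level, and 308 names with counts could not be tested.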

Other observations

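Names below the filter held 6.25% of the diapaused and 4.84% of the mTORi counts of the polar fragments. Of these 308 names, 106 were read in both groups, 169 in diapaused libraries only and 33 in mTORi libraries only, with 33059 against 8746 counts in all. The most frequent were chosen here after their values were seen. miR-467c-5p, of the Sfmbt2 cluster, had 27, 12 and 13 counts in diapaused and 0, 0 and 4 in mTORi libraries, and miR-669f-3p had 18, 14 and 18 against 4, 1 and 0. miR-652-3p had 21, 10 and 11 counts against 0, 0 and 2, and miR-330-3p had 17, 12 and 8 against 0, 1 and 1. The most frequent name read in mTORi libraries only was miR-99a-5p, with 7 counts.

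Of 11 hairpins with both arms tested, 7 had both arms on the same side of zero. The share of the 5p arm of miR-295 was 21.2%, 22.4% and 16.8% in diapaused and 12.7%, 11.5% and 35.6% in mTORi libraries, so that mTORi replicate 3 was above and the other mTORi libraries below the diapaused range. For miR-292a it was 80.9%, 82.3% and 80.8% against 79.6%, 78.6% and 69.6%.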
